A study of Mus musculus with 20 samples.

Results

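The genes described here are 10 markers of the choroid plexus epithelium, read in the neocortex of young and aged mice with and without vitamin E. They are Ttr, Kl, Sostdc1, Kcne2, Cldn2, Kcnj13, Folr1, Clic6, F5 and Otx2. The members are the probe sets, groups of short oligonucleotides against one transcript, whose array annotation names 1 of these genes and no other. There were 18 such probe sets among the 45037 that are not array controls, and the 10 genes stood among 18193 with a probe set of their own. Each gene had at least 1 probe set.

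All mice were male B6C3F1 animals, the first-generation hybrid of B6 and C3H parents, and were housed singly. There were 4 groups of 5 mice with 1 array per mouse. The mixture group was 30 months old and had been fed 500 mg/kg α-tocopherol with 500 mg/kg γ-tocopherol from 15 months of age. The α-tocopherol group was 30 months old and had been fed 1000 mg/kg α-tocopherol from the same age. Old control mice, at 30 months of age, and young control mice, at 5 months, ate the control diet. α-Tocopherol has a methyl group on its ring that γ-tocopherol does not have. The labels name the tissue as neocortex, and say nothing of how it was cut from the brain.

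The choroid plexus is a folded epithelium in the brain ventricles that secretes cerebrospinal fluid and forms the barrier between blood and that fluid. It makes transthyretin, the product of Ttr and a carrier of thyroxine and retinol-binding protein, in very large amounts. It is also the main site of α-klotho in the brain. α-Klotho, the product of Kl, is a membrane co-receptor for the hormone FGF23 and is known for the short life of mice that lack it. The plexus is no layer of the neocortex.

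Otx2, a homeodomain transcription factor and itself a member, is known to bind TAATCC, so the promoter windows of the members were read for that motif and for the shorter TAATC that it contains, on both strands. From the RefSeq table of build GRCm38.p6, 10 windows of 6 of the genes were read, each running from 250 bases before to 50 bases after a gene start. Any window of Ttr was left out of this reading, and Sostdc1, Folr1 and Clic6 had none. The windows of Kl, Kcne2 and Kcnj13 that hold the shorter motif are shown, being those of members other than Otx2 itself, each 5′ to 3′ on the strand of the gene with the motif in capitals. That of Kl lies at chr5:150952357-150952656 on the plus strand, that of Kcne2 at chr16:92292139-92292438 on the plus strand and that of Kcnj13 at chr1:87394680-87394979 on the minus strand.

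Kl: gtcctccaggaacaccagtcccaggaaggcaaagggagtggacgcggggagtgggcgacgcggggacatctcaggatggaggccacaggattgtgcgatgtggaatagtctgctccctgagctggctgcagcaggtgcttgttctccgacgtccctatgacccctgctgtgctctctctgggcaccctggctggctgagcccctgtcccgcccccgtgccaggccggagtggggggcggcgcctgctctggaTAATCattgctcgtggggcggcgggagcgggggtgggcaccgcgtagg

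Kcne2: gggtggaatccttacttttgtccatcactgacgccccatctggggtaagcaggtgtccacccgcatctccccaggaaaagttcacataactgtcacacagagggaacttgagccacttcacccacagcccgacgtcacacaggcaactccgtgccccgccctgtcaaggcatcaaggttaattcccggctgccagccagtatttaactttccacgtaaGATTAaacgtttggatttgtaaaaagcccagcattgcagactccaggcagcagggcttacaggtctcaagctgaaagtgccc

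Kcnj13: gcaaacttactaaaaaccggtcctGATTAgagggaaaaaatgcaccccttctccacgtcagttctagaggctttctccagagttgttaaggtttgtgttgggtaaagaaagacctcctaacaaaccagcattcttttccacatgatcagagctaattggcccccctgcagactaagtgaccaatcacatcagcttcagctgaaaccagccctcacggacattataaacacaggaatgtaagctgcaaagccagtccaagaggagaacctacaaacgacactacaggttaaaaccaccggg

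Counted with the gene start as position 1, the capitals begin at position 3 in Kl, at -32 in Kcne2 and at -226 in Kcnj13. In Kcne2 and Kcnj13 they read GATTA, the motif on the other strand. TAATC was present in 4 of the 10 windows, 1 each of 4 genes, against 22% of the 32851 windows in the table. The fourth was a window of Otx2 itself, whose GGATTA at -211, on the other strand, is also the single copy of the full TAATCC in the 10 windows read. That longer motif was present in 7.06% of all windows. A match is a description of letters and no measurement of binding.

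Every array had a 2% trimmed mean signal of 1000, so the arrays were already on a common scale. The array medians lay between 292 and 332 in mixture mice, 280.3 and 318 in α-tocopherol mice, 284 and 313 in old control mice and 316 and 331 in young control mice. The ratio of the 3′ to the 5′ control probe sets for β-actin, which is higher where the RNA or its copying is shorter, ran from 1.22 to 1.60 in mixture, 1.43 to 2.36 in α-tocopherol, 1.73 to 2.52 in old control and 1.42 to 1.74 in young control mice. The number of arrays, 5 in each group, limits the precision of every value. Markers of neocortical excitatory neurons were bright on all arrays. Slc17a7, the vesicular glutamate transporter of these cells, had a median signal of 12404 in mixture, 13549 in α-tocopherol, 12760 in old control and 8660 in young control mice.

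Transthyretin was bright on every array, and its signal was low in 4 of the 20 mice, 3 of them old control mice. In bulk tissue, fewer cells of a type and less RNA per cell cannot be told apart. On its brightest probe set (1454608_x_at), Ttr read 35745, 31443, 28306, 31447 and 30549 in the mixture mice 1 to 5. In the α-tocopherol mice 1 to 5 it read 44416, 16214, 43795, 44322 and 34842. In old control mice it read 14076, 44097, 8129, 10254 and 50082, and in young control mice 35367, 34820.5, 26339, 35131 and 39668. Old control mice 1, 3 and 4 and α-tocopherol mouse 2 lay below every other mouse. The widest step in the ordered log2 signals of the 20 mice, 0.70, fell between these 4 mice and the other 16, from 16214 up to 26339. The next widest step was 0.46. The same 3 old control mice were lowest on all 4 Ttr probe sets, and the other 2 old control mice lay above all 5 mixture mice on each of them.

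The 4 Ttr probe sets differed in how far the mice spread. In old control mice the highest signal was 6.16 times the lowest on 1454608_x_at and 12.1 times the lowest on 1451580_a_at, where the 5 mice read 4627, 36437, 3019, 3530 and 33991. On that second probe set the mixture mice read between 22626 and 30737. Names ending in _x_at or _s_at, as 3 of the 4 Ttr probe sets have, mark possible binding of other transcripts.

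**Figure D1:**
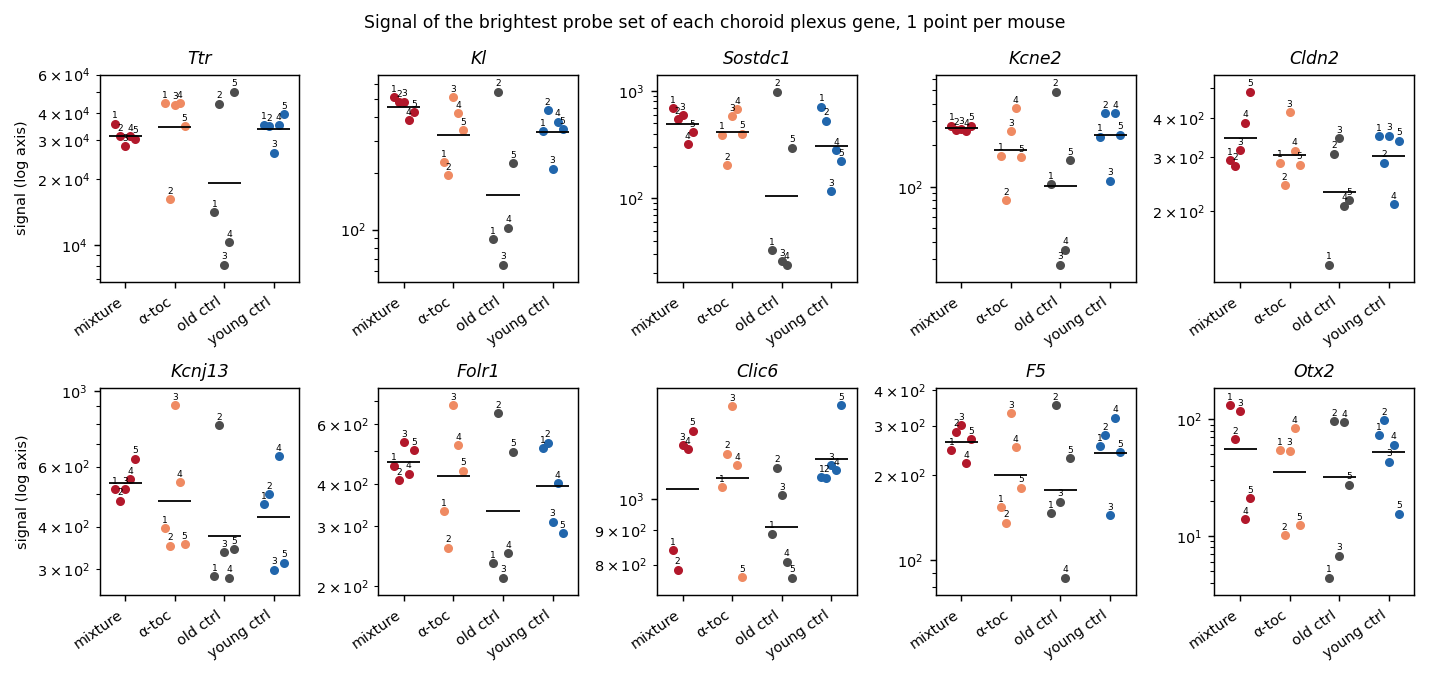
Signal of the brightest probe set of each of the 10 genes (log axis, with its own range for each gene), by group, 1 point per mouse with its replicate number. Bars are means of log2(signal + 16) turned back into signal. For Ttr, old control mice 1, 3 and 4 lie between 8129 and 14076, while the 5 mixture mice lie between 28306 and 35745.

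Kl, the klotho gene, was low in the same 3 old control mice as Ttr and most even in mixture mice. Its brighter probe set (1423400_at) read 512, 481, 484, 384 and 425 in mixture mice. It read 230.5, 196, 512, 421 and 341 in α-tocopherol mice. Old control mice had 89.0, 547, 65.1, 103 and 227, and young control mice had 338, 437, 212, 378 and 345. Of the old control mice, 4 lay below the lowest mixture mouse, and the remaining one, old control mouse 2, had the highest Kl signal of all 20 mice. The order of the group means, turned back from log2, was 455 in mixture, 333 in young control, 320 in α-tocopherol and 153 in old control mice. Over the 4 groups together, Kl was the 1 member probe set of 18 that passed the limma F test, with a Benjamini-Hochberg adjusted p of 0.0487. The share of all probe sets that passed that test was 11.4%. The call held in 4 of the 20 fits that each left out 1 mouse, those without old control mouse 2 or 5 or α-tocopherol mouse 1 or 2.

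The other Kl probe set (1451892_at) was dim. It read 9.8, 18.6, 7.9, 19.8 and 20.6 in mixture mice and 23.8, 21.4, 8.5, 19.3 and 11.6 in α-tocopherol mice. In old control mice it read 8.9, 9.3, 13.6, 8.1 and 9.3, and in young control mice 29.4, 43.6, 35.9, 22.5 and 12.6. The mixture and old control mice overlapped on it, and young control mouse 5 was the only young mouse within the range of the old control mice.

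Sostdc1, which encodes a secreted antagonist of bone morphogenetic proteins and a modulator of Wnt signals, had the widest spread of the 10 genes in old control mice. Its brighter probe set (1449340_at) read 691, 545, 597, 319 and 414 in mixture mice and 393, 205, 583, 679 and 401 in α-tocopherol mice. Old control mice had 33.0, 983, 25.9, 24.2 and 297, and young control mice had 712, 527, 116, 281 and 223. Old control mice 1, 3 and 4, the mice with low Ttr, were below all 17 others and mouse 2 was above all others. The highest old control mouse had 40.6 times the signal of the lowest. The second probe set (1460250_at) ran from 161 to 283 in mixture, 59.5 to 311 in α-tocopherol, 51.6 to 394 in old control and 149 to 279 in young control mice, with old control mouse 1 lowest and old control mouse 2 highest.

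Of the ion transport genes, Kcne2 was low in the same 3 old control mice as Ttr. Kcne2, a single-pass subunit that modifies potassium channels, read 277, 257, 262.5, 254 and 278 in mixture mice and 168, 79.8, 253, 371 and 164 in α-tocopherol mice. It read 104, 488, 27.4, 35.0 and 157 in old control mice and 230.3, 340.3, 110.5, 341 and 239 in young control mice. The mixture mice were nearly equal, and 4 of the 5 old control mice lay below all of them.

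Kcnj13, the inwardly rectifying potassium channel Kir7.1 of the apical membrane, read 516, 477, 516, 551 and 633 in mixture mice and 396, 352, 908, 540 and 355 in α-tocopherol mice. Old control mice had 287, 792, 336.5, 283 and 344, and young control mice had 464, 498, 299, 643 and 314. Here too 4 old control mice lay below the lowest mixture mouse, but the lowest old control mouse was not far below the lowest young one. Cldn2, a tight junction protein that forms a pore for cations, ran from 281 to 487 in mixture, 243 to 417 in α-tocopherol, 135 to 345 in old control and 211 to 351 in young control mice on its brighter probe set (1417232_at). Old control mouse 3, lowest for Ttr, was the highest old control mouse for Cldn2 on that probe set. On the dimmer Cldn2 probe set (1417231_at) the mixture mice ran from 101 to 197, against 32.4 to 304 in α-tocopherol and 50.9 to 81.8 in young control mice. The old control mice read 36.2, 219, 41.8, 40.1 and 125 on it, so mice 1, 3 and 4 were the low ones there, as for Ttr.

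Folr1 encodes the folate receptor that carries folate across the plexus. It read 453, 409, 530.5, 428 and 502 in mixture mice and 332, 259, 682, 519 and 438 in α-tocopherol mice. In old control mice it read 233, 646.5, 211, 249 and 496.5, and in young control mice 510, 528, 309, 401 and 286. The 3 old control mice with low Ttr were below every mixture mouse.

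Clic6, a chloride intracellular channel family member, was not lowest in the mice with low Ttr on its brighter probe set (1434165_at). It ran from 787 to 1260 in mixture, 766 to 1369 in α-tocopherol, 765 to 1112 in old control and 1074 to 1375 in young control mice. Old control mouse 5, which had the highest Ttr signal of all 20 mice, had the lowest Clic6 signal of all. The second Clic6 probe set (1454866_s_at) ran from 553 to 1176 in mixture, 563 to 870 in α-tocopherol, 414 to 1008 in old control and 548 to 1026.5 in young control mice.

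F5, which encodes coagulation factor V, read 246, 285, 302, 220.1 and 268 in mixture mice and 154, 135, 333, 252 and 181 in α-tocopherol mice on its brighter probe set (1449269_at). Old control mice had 146, 355, 161, 86.4 and 229.8, and young control mice had 254, 278, 144, 319.9 and 241. Old control mice 1, 3 and 4 lay below all mixture mice. Its second probe set (1418907_at) ran from 166.5 to 278.5 in mixture, 102 to 301 in α-tocopherol, 29.5 to 266 in old control and 64.1 to 270.1 in young control mice, and there old control mouse 5 was the lowest. Otx2 was dim, between 14.0 and 132 in mixture, 10.2 and 83.7 in α-tocopherol, 4.4 and 96.4 in old control and 15.6 and 97.8 in young control mice, and its groups overlapped.

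**Figure D2:**
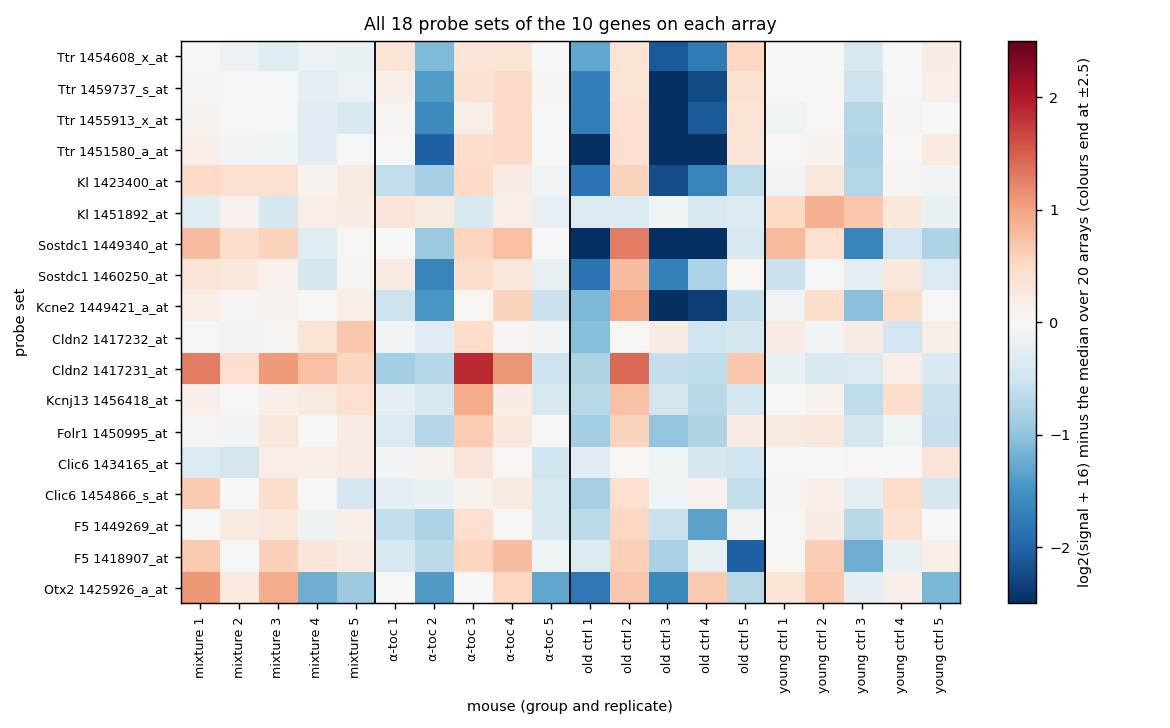
All 18 probe sets (rows) on the 20 arrays (columns, grouped as mixture, α-tocopherol, old control and young control), coloured by log2(signal + 16) minus the median of that probe set over the 20 arrays, with colours ending at ±2.5. Old control mice 1, 3 and 4 and α-tocopherol mouse 2 are low over the 4 Ttr rows, and old control mouse 2 is high in most rows.

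The number of genes on the low side was highest, at 9 or 10, in old control mice 1, 3 and 4 and α-tocopherol mouse 2. It did not set these mice apart, since other mice had 8. Counting each gene on its brightest probe set against its own median over the 20 mice, the mixture mice 1 to 5 had 2, 4, 1, 5 and 2 of the 10 genes below it. The α-tocopherol mice had 8, 9, 1, 0 and 7. The old control mice had 10, 0, 9, 9 and 8, and the young control mice 4, 3, 8, 3 and 7. Old control mouse 5 combined the highest Ttr signal with 8 other genes below their medians, and old control mouse 2 had none below.

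Set against the old control mice, the mixture mice had a higher mean on all 18 probe sets, and none of them passed the limma test after Benjamini-Hochberg adjustment over all 45037 probe sets. Of all probe sets, 56.5% were higher in mixture mice and 1.09% passed. At an unadjusted p under 0.05 there were 8 of the 18, against 14.8% of all probe sets. The median log2 fold change over the 18 was 0.74, and over all probe sets it was 0.04.

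Kl came nearest to the threshold. Its log2 fold change on 1423400_at was 1.48 (SE 0.37, 95% interval 0.70 to 2.25), a 2.78-fold higher signal in mixture mice with a limma adjusted p of 0.0547. It passed under 3 of 15 alternatives, and over the 15 the limma adjusted p ran up to 0.904. The 3 were 0.0304 over the brightest 60% of probe sets, 0.0247 with 1 probe set for each gene among those and 0.0471 with a robust estimate of the spread over all probe sets. The dim Kl probe set differed by 0.26 (SE 0.22). Old control mouse 2 had the highest signal of the 20 mice for Kl, Sostdc1 and Kcne2. Without it the log2 fold change of Kl was 1.91, with a limma adjusted p of 0.0113. Sostdc1 at 2.84 and Kcne2 at 1.77 then passed as well, with limma adjusted p of 0.0295 and 0.0418. For Kl this was the 1 fit that passed of the 20 that each left out 1 mouse. Leaving out the mouse that is highest for these genes lowers their old control mean by construction. The share of all probe sets that passed in that fit was not counted.

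For the other genes, Sostdc1 differed by 2.08 (SE 0.67, limma adjusted p = 0.124) on its brighter probe set and Kcne2 by 1.25 (SE 0.49, limma adjusted p = 0.215). The 4 Ttr probe sets differed by between 0.71 (SE 0.38) and 1.52 (SE 0.58), the smallest on the brightest. Cldn2 differed by 0.55, Kcnj13 by 0.49, Folr1 by 0.46, F5 by 0.53 and Clic6 by 0.18 on their brightest probe sets, and Otx2 by 0.57 with the wide interval of -0.57 to 1.71. None of these passed.

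The α-tocopherol mice also had a higher mean than old control mice on all 18 probe sets, and none passed, as was the case for 0% of all 45037 probe sets in that comparison. Here 52.6% of all probe sets were higher. At an unadjusted p under 0.05 there were 6 of the 18, namely Kl, Sostdc1 and the 4 Ttr probe sets, against 5.56% of all probe sets. Sostdc1 differed by 1.85 (SE 0.67) and Kl by 0.99 (SE 0.37), each with a limma adjusted p of 0.887. Ttr differed by 0.85 (SE 0.38) on its brightest probe set. The median over the 18 was 0.45, against 0.01 over all probe sets. Both comparisons use the same 5 old control arrays, so their values are not independent of each other.

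With both supplements pooled against old control mice, all 18 probe sets were again higher, against 54.8% of all probe sets. None passed, against 0.00666% of all. Kl differed by 1.23 (SE 0.32, limma adjusted p = 0.174), Sostdc1 by 1.96 (SE 0.58, limma adjusted p = 0.19) and Ttr by 0.78 (SE 0.33, limma adjusted p = 0.347). At an unadjusted p under 0.05 there were 9 of the 18, against 12.0% of all probe sets. Kl passed in this comparison without old control mouse 2, at 1.67 with a limma adjusted p of 0.0312. That omission again lowers the old control mean of Kl by construction.

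The 2 supplements held 1000 mg/kg of tocopherol each, the mixture with γ-tocopherol in place of a part of the α-tocopherol. In mixture against α-tocopherol mice, 14 of the 18 probe sets were higher, against 54.5% of all probe sets, and 0 had an unadjusted p under 0.05, against 7.13% of all. None passed after adjustment, and 0% of all probe sets did. Kl differed by 0.49 (SE 0.37, 95% interval -0.29 to 1.26), Kcne2 by 0.48 (95% interval -0.53 to 1.50), Sostdc1 by 0.23 (95% interval -1.16 to 1.62) and Ttr by -0.13 (95% interval -0.92 to 0.65). With intervals this wide, these values do not show that the 2 supplements act alike.

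In old against young control mice, 17 of the 18 probe sets had a lower mean, and 1 passed. Of all probe sets, 40.5% were higher in old control mice and 10.8% passed. The one that passed was the dim Kl probe set 1451892_at, which fell by 0.75 on the log2 scale (SE 0.22, limma adjusted p = 0.0288). Its highest signal in any mouse was 43.6. That is below the signal of 184 that bounds the brightest 60% of probe sets. It passed in 13 of the 20 fits that each left out 1 mouse, and its limma adjusted p was between 0.0503 and 0.0835 without young control mouse 1, 2 or 3 or without old control mouse 1, 2, 4 or 5. The brighter Kl probe set differed by -1.05 (SE 0.37, limma adjusted p = 0.0766), and by -1.48 (limma adjusted p = 0.00399) without old control mouse 2. Over the brightest 60% of probe sets its adjusted p was 0.0494.

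Sostdc1 differed by -1.43 (SE 0.67, limma adjusted p = 0.178), Kcne2 by -1.09 (SE 0.49, limma adjusted p = 0.158) and Ttr by -0.82 (SE 0.38, limma adjusted p = 0.169) between old and young control mice. The dimmest of the 4 Ttr probe sets differed by -1.51 (SE 0.58, limma adjusted p = 0.0953). At an unadjusted p under 0.05 there were 9 of the 18, against 26.0% of all probe sets. The median over the 18 was -0.52, against -0.08 over all probe sets. The exception in direction was the dim Cldn2 probe set, at 0.25 (SE 0.47), which ranged from -0.90 to 0.88 over the alternatives. Without old control mouse 2, the highest of all mice for Kl, Sostdc1 and Kcne2, 6 probe sets passed, 3 of Ttr with those genes. Without old control mouse 5, the highest for Ttr, there were 3, all of Ttr. Leaving out such a mouse lowers the old control mean by construction. The share of all probe sets that passed in these fits was not counted.

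**Figure D3:**
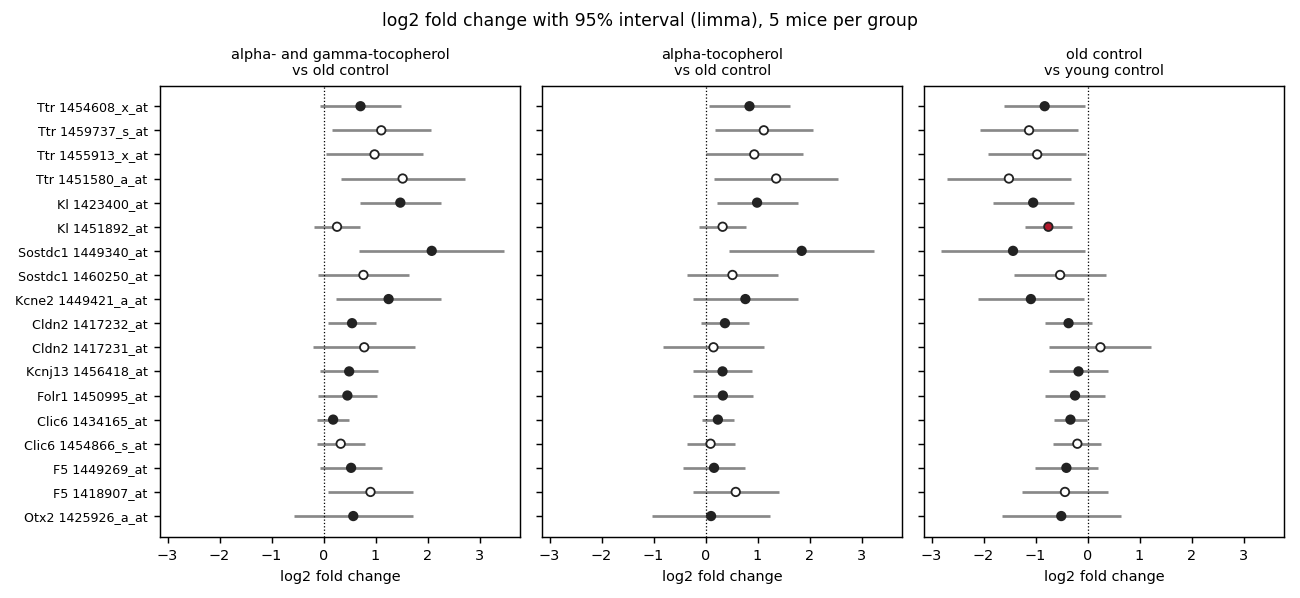
log2 fold change of each of the 18 probe sets with its 95% interval from limma, 5 mice per group, in mixture against old control, α-tocopherol against old control and old against young control mice. Filled points are the brightest probe set of a gene, open points the others, and the red point is the one probe set past the threshold, Kl 1451892_at at -0.75 in old against young control mice.

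The β-actin ratio moved with these genes in part. It was 2.21, 2.52 and 2.01 in old control mice 1, 3 and 4, the mice with low Ttr, and 1.73 in each of the other old control mice. α-Tocopherol mouse 2, also low in Ttr, had a ratio of 1.44, and α-tocopherol mouse 1, with a Ttr signal of 44416, had 2.36. The ratio was at most 1.60 in mixture and at least 1.73 in old control mice, so these groups did not overlap in it. With the ratio as a covariate, Kl differed by 0.74 (limma adjusted p = 0.904) in mixture against old control and by -0.45 (limma adjusted p = 0.601) in old against young control mice. The signal of the 18S ribosomal RNA control ran from 235 to 405.0 in mixture, 299 to 742 in α-tocopherol, 464 to 656 in old control and 164 to 309 in young control mice, so old control overlapped neither mixture nor young control mice. With the 18S signal as a covariate the differences were 1.75 (limma adjusted p = 0.393) and -1.46 (limma adjusted p = 0.354). Where groups do not overlap in a covariate, such a fit cannot tell the covariate and the group apart. With the Ttr signal itself as a covariate, Kl differed by 0.92 (limma adjusted p = 0.0977) in mixture against old control mice.

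The spread between mice of one group was itself uneven. The SD of log2(signal + 16) for Ttr was 0.12 in mixture, 0.63 in α-tocopherol, 1.21 in old control and 0.22 in young control mice (n = 5 each). For Kl it was 0.16 in mixture, 0.55 in α-tocopherol, 1.13 in old control and 0.37 in young control mice, and for Sostdc1 it was 0.43 in mixture, 0.64 in α-tocopherol, 2.11 in old control and 0.98 in young control mice. The old control SD of Kl exceeded that of 98.8% of all probe sets, that of Ttr 99.4% and that of Sostdc1 99.98%. Kcne2 had an SD of 0.06 in mixture mice, where 1.52% of all probe sets had a smaller one, and of 1.43 in old control mice. Clic6 had SDs of 0.32 in mixture, 0.30 in α-tocopherol, 0.22 in old control and 0.15 in young control mice on 1434165_at. On its second probe set they were 0.42 in mixture, 0.25 in α-tocopherol, 0.51 in old control and 0.34 in young control mice, so there old control was again the widest. No test of these SDs between groups was made. The limma fit uses 1 spread per probe set for all groups, so its SEs, intervals and p-values take these SDs as equal. Where old control mice were the widest, as for Kl, this understates the error of a comparison with them.

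**Figure D4:**
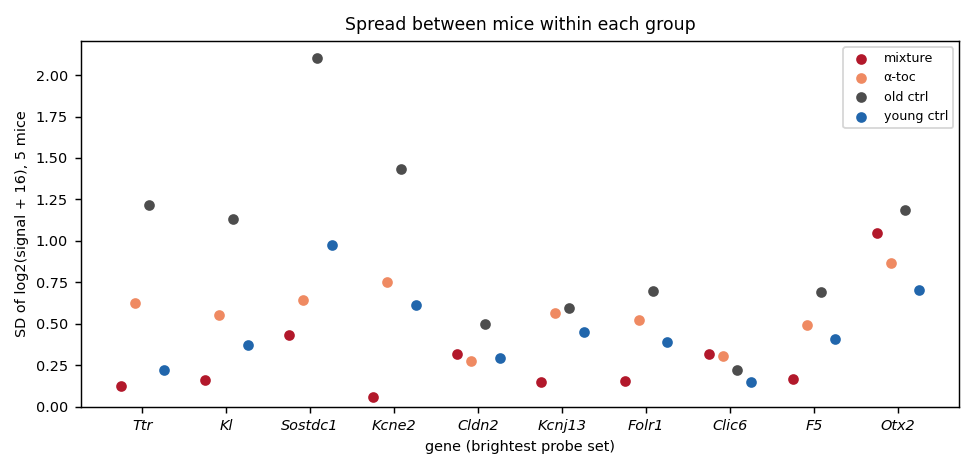
SD of log2(signal + 16) over the 5 mice of each group, for the brightest probe set of each gene. For every gene but Clic6 the old control point is the highest, at 2.11 for Sostdc1 and 1.43 for Kcne2.

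Some of the genes moved together between mice of the same group. Because Ttr sets 4 mice apart, the correlations were computed over the other 16, after subtracting the mean of each group, with a permutation test within groups and Benjamini-Hochberg adjustment over the 45 pairs of genes. Of the old control group only mice 2 and 5 were left, so their deviations were equal and opposite. These mice lay far apart, with 547 and 227 for Kl and 488 and 157 for Kcne2, and so weigh heavily on r. Of the 45 pairs, 42 had a positive Pearson r and 11 passed, and by Spearman's rho 11 passed. Over all pairs of the 18193 genes 50.4% had a positive r. An r of 0.687 or more, the lowest among the 11, was found in 14 of the 45 pairs and in 0.781% of all pairs of genes. The closest pair was Kl and F5, with r = 0.889 (permutation p = 0.0004, adjusted p = 0.018) and rho = 0.90 (permutation p = 0.00072, adjusted p = 0.0162). Kl and Kcne2 had r = 0.867 (permutation p = 0.00609, adjusted p = 0.0408) and rho = 0.877 (permutation p = 0.00256, adjusted p = 0.0279).

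When the 2 mice farthest from the median of the first gene were also left out, 1 pair passed, Sostdc1 and Otx2. Their r was 0.687 (permutation p = 0.00401, adjusted p = 0.0408) over 16 mice and 0.783 (permutation p = 0.00109, adjusted p = 0.0491) over 14, with rho = 0.791 (permutation p = 0.00068, adjusted p = 0.0162) over 16. For Kl and F5 r was 0.860 over 14 mice (permutation p = 0.0105, adjusted p = 0.190), and for Kl and Kcne2 it was 0.656 (permutation p = 0.137, adjusted p = 0.377). The other 10 pairs no longer passed with 14 mice, although r was about as large for some of them. Leaving out the 4 mice lowest in Ttr narrows the range of Ttr itself. The correlations of its brightest probe set over the 16 mice, between -0.14 for Cldn2 and 0.38 for Kcne2, therefore say little. Over all 20 mice, 4 of which stand apart in Ttr, its r was 0.85 with Kcne2, 0.84 with Sostdc1, 0.83 with Kl, 0.78 with Folr1, 0.70 with F5, 0.50 with Kcnj13, 0.35 with Otx2, 0.12 with Cldn2 and -0.02 with Clic6, given as values. With the other 3 Ttr probe sets Kl had an r of 0.70, 0.62 and 0.60 over the same 16 mice, against 0.22 with the brightest, given as values with no test.

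**Figure D5:**
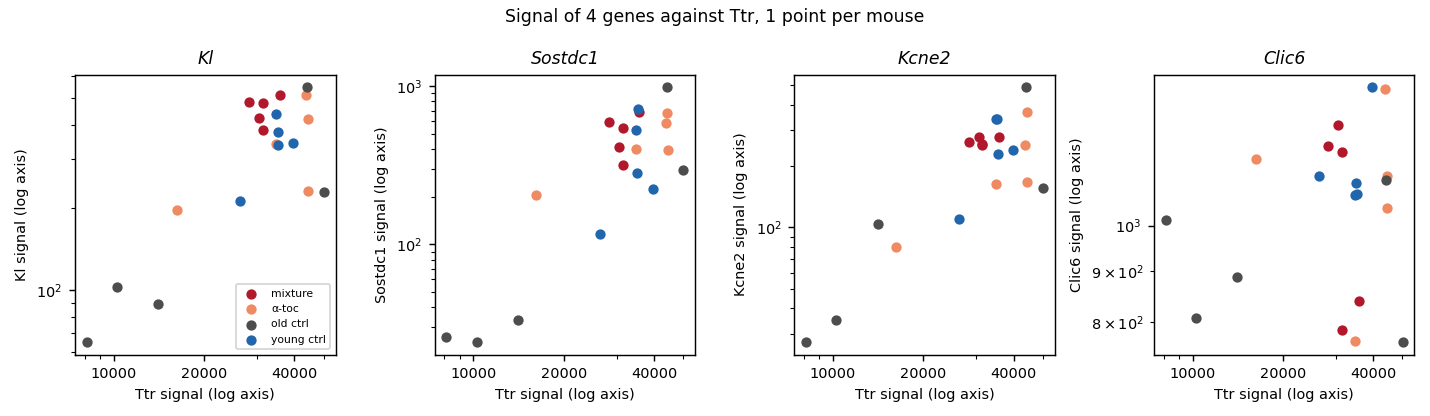
Signal of Kl, Sostdc1, Kcne2 and Clic6 (brightest probe sets, log axes) against that of Ttr in the 20 mice. Old control mice 1, 3 and 4 are at the lower left for Kl, Sostdc1 and Kcne2, the other mice have a Ttr signal from 16214 up, and Clic6 shows no such arrangement.

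The genes outside the 10 whose signal ran most like Ttr and Kl were ranked over all 20 mice by the Pearson r of group-centred log2 signals, among 23453 probe sets with 1 gene symbol in the brightest 60%. For Kl these were Ecrg4 on 1460049_s_at (r = 0.899), Mcm7 (0.896) and Trpm3 (0.875), then Zfp652, Brap, Rps9, Calml4, Plcd1, Slc29a2 and Rdh5 down to 0.748. For Ttr they were Ecrg4 on 1423261_at (0.889), Plcd1 (0.804), Trpm3 (0.797), Mcm7 (0.794) and Slc29a2 (0.787), then 2310061I04Rik, Fam118b, Thoc2, Thnsl2 and Camk2n2 down to 0.726. Of the genes named for Kl or Ttr, Ecrg4, Calml4 and Rdh5 are also on the list of other choroid plexus genes described below. Over the 16 mice, where the range of Ttr is narrower, r with Ttr was 0.18 for Ecrg4, 0.23 for Plcd1, 0.15 for Trpm3, 0.32 for Mcm7 and 0.44 for Slc29a2. These values are for the brightest Ttr probe set alone, and the others were not ranked in this way. With Kl it was 0.27 for Plcd1 and for Slc29a2 over those mice, and between 0.53 and 0.82 for the others named. Among the same probe sets, with that of Kl itself counted, Sostdc1 ranked 2 and Kcne2 ranked 3 in likeness to Kl, while Cldn2 ranked 5049.

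Ecrg4, which encodes a secreted peptide precursor, read 647, 754, 893, 589.5 and 569 in mixture mice and 495, 108, 808, 1458 and 564 in α-tocopherol mice on 1460049_s_at. Old control mice had 129, 1376, 99.3, 109 and 513, and young control mice had 687, 820, 153, 942 and 470.1. Old control mice 1, 3 and 4, α-tocopherol mouse 2 and young control mouse 3 were the lowest. Trpm3, a cation channel gene, read 75.8, 405, 54.3, 39.2 and 139 in old control mice, against 157 to 337 in young control mice.

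Other genes known from the choroid plexus epithelium, taken from a list of 37 of which 33 were measured, did not pass in mixture or in α-tocopherol against old control mice, by limma on the brightest probe set of each. Over the brightest probe set of every gene 1.37% passed in the comparison with the mixture and 0% in that with α-tocopherol. In mixture mice 28 of the 33 were higher with a median log2 fold change of 0.20, and in α-tocopherol mice 26 were higher with a median of 0.09. In old against young control mice 5 of the 33 passed, 3 higher and 2 lower, against 14.0% of all genes on their brightest probe sets. The median there was -0.13.

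The 4 with the smallest p over the 4 groups were transporter and junction genes. Slc29a4, a monoamine transporter, fell by 0.57 in old against young control mice (SE 0.11, limma adjusted p = 0.00338), with medians of 2173 in old and 2908 in young control mice. Cldn3, a tight junction gene, fell by 1.42 (SE 0.42, limma adjusted p = 0.0332). Slc5a5, the sodium and iodide symporter, was higher by 0.55 (SE 0.13, limma adjusted p = 0.00857), and Slc12a2, a sodium, potassium and chloride cotransporter, by 0.30 (SE 0.09, limma adjusted p = 0.0281). Sulf1 was the third gene higher, at 0.49.

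Tissue next to the plexus or the cortex was followed with lists of defining markers. All 17 ependymal and ciliated cell genes were measured, with a summed signal of 12760 to 14889 in mixture, 13936 to 16192 in α-tocopherol, 11743 to 16658 in old control and 12068 to 14216 in young control mice. None passed in either supplement comparison. In old against young control mice 1 passed as higher and 3 as lower, where 14.0% of all genes passed on their brightest probe sets. The 17 meningeal genes summed to 30390 to 36485 in mixture, 34023 to 46580 in α-tocopherol, 31000 to 40783 in old control and 28981 to 31733 in young control mice. None passed in a supplement comparison, although 14 of 17 were higher in mixture and 15 of 17 in α-tocopherol than in old control mice. A single meningeal gene passed between old and young control mice, higher in old, against the same 14.0%. No marker of these lists was at 0 on all arrays, and the part of neighbouring tissue in the values of the 10 genes was not tested.

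Markers of hippocampus, striatum, blood and endothelium gave no call in any comparison, and those of thalamus and habenula gave 1, Nwd2, lower in mixture than in old control mice at -0.49 (limma adjusted p = 0.03). Of the 10 thalamus and habenula genes, 8 were higher in mixture than in old control mice (median log2 fold change 0.24) and 1 was higher in old than in young control mice (median -0.22). Their summed signal ran from 9320 to 12426 in mixture, 8926 to 12390 in α-tocopherol, 8693 to 11581 in old control and 11606 to 12329 in young control mice, so old and young control mice did not overlap. The part of this tissue in the values of the 10 genes was not tested. Of 9 measured markers of neocortical excitatory neurons, 2 passed as higher in old than in young control mice, against 14.0% of all genes in either direction. None of the 9 passed in the supplement comparisons. For the 10 choroid plexus genes, the summed signal of the brightest probe sets ran from 32630 to 39704 in mixture, 18860 to 48906 in α-tocopherol, 10320 to 52842 in old control and 29045 to 43044 in young control mice. Most of this sum is Ttr, which alone read 28306 to 35745 in mixture and 8129 to 50082 in old control mice. It therefore says little of the other genes.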

How the data were processed

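RNA from the neocortex of 20 mice was hybridised to 1-colour Affymetrix arrays after oligo-dT priming, cDNA synthesis and labelling of cRNA, per the labels' protocols. The deposited values are linear intensity values, called signals here, made by the authors with GCOS, the scanner software, per the submitters' processing notes. No source used here gives its version, its background step or the target of its scaling. In the deposited table the 2% trimmed mean was 1000 on each array, so the values were used with no further scaling.

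Of 45101 probe sets, 64 array controls were left out. Symbols came from the platform annotation, which named 1 gene for 34945 probe sets, several for 932 and none for 9160, and 34741 were matched to RefSeq. log2(signal + 16) was fitted with limma 3.58.1 in R 4.3.3 for all 45037 probe sets and all 20 arrays, with a mean per group and an intensity trend, and p-values were adjusted by the Benjamini-Hochberg method at a threshold of 0.05. The groups share 1 estimate of the spread for each probe set. A fold change on the log2(signal + 16) scale understates that of dim probe sets. Every probe set of a member is reported, and where 1 stands for a gene it is the brightest. Permutation tests of correlations used 100000 shuffles within groups, two-sided. Each script that fits all probe sets was tested on simulated data.

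The 10 genes and the marker lists (other choroid plexus, ependymal, meningeal, neocortical, hippocampal, striatal, thalamic, blood and endothelial genes) were chosen with earlier results of these data known. Genes outside the 10 were named by the 10 highest correlations with Ttr and with Kl, the 4 smallest p-values of the other choroid plexus list and any call of that list. Groups share replicate numbers, but same-numbered mice did not deviate together, so no pairing was used. The alternatives were another pseudocount, filters, scalings, array weights, covariates and leaving out each mouse.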

Additional observations from a re-analysis of the deposited data

Results flagged for a closer look

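Within groups of 5 mice, a value was singled out where its gap to the next value exceeded 0.71 of the range of the group, the 95% limit of Dixon's test. Chance alone gives this in about 1 of 20 groups, and it was met in 10 of the 72 groups of member probe sets. These groups are not independent, since the probe sets of a gene are read in the same mice.

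Ttr accounted for 7 of the 10. α-Tocopherol mouse 2 was far below the other mice of its group on all 4 Ttr probe sets, with signals of 16213.9, 11028.3, 9940.5 and 6606.3. Young control mouse 3 was far below the other young mice on 3 of them, with 20496.5, 18148.8 and 15905.6. In old control mice no Ttr value stood apart by this measure, since 3 mice were low and 2 were high.

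The other 3 were single high values. Kl on its dim probe set 1451892_at was 13.6 in old control mouse 3, Kcnj13 was 792.3 in old control mouse 2, and Clic6 on 1434165_at was 1375.1 in young control mouse 5. The cause of these values was not tested.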

How the results depend on the processing

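In mixture against old control mice, 0 of the 18 probe sets passed, and 1, Kl, passed over the brightest 60% of probe sets, with 1 probe set per gene among those, and with a robust estimate of the spread. In old against young control mice 1 passed, and 0 passed after quantile or cyclic loess normalization, with only the arrays compared in the fit, or with β-actin or 18S as a covariate. Over the 4 groups 1 passed, and 0 passed with array medians set equal, after quantile or cyclic loess normalization, with a pseudocount of 64, without the intensity trend, with the replicate number as a block, or with Ttr, β-actin or 18S as a covariate. Leaving out 1 mouse at a time gave 0 to 3 in mixture against old control, 0 to 1 with both supplements pooled, 0 to 6 in old against young control and 0 to 5 over the 4 groups, each highest count without old control mouse 2. Without old control mouse 5 the last of these was 3. The share of all probe sets that passed was not counted for the fits that left out 1 mouse. The Kl difference between mixture and old control mice was 0.74 to 1.75 over the alternatives that kept all mice. Same-numbered mice had deviations that correlated between -0.058 and 0.119, and 5 of 20 mice correlated best with their own number, so the replicate block is given only here.

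Pairs of genes that passed numbered 21 over 20 mice, 11 over 16 by either coefficient, and 1 over 16 without the 2 farthest. The choice of the 16 was made after seeing the data.

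Directions turned in members that had not passed, given here for brightest probe sets unless named. With β-actin as a covariate, Folr1 was -0.12 in mixture against old control, Folr1 -0.013 and Otx2 -0.0033 in α-tocopherol against old control, Kcnj13 0.014 and Folr1 0.23 in old against young control, and Sostdc1 -0.23 in mixture against α-tocopherol mice. With Ttr as a covariate, Kcne2 was -0.13, Folr1 -0.12, F5 -0.24 and Otx2 -0.31 in α-tocopherol against old control, and Kcnj13 0.11 and Folr1 0.21 in old against young control mice. Otx2 was -0.23 with array weights in α-tocopherol against old control mice. Ttr in mixture against α-tocopherol mice was 0.22 with quantile normalization and 0.043 with cyclic loess. Leaving out 1 mouse at a time gave F5 -0.065 to 0.40 and Otx2 -0.20 to 0.41 in α-tocopherol against old control, and Sostdc1 -0.014 to 0.40 in mixture against α-tocopherol mice. Of the other probe sets, Sostdc1 1460250_at ranged over the alternatives from -1.08 to 0.20 in old against young control and from -0.22 to 0.72 in α-tocopherol against old control mice, and Cldn2 1417231_at from -0.90 to 0.88 and from -0.49 to 0.57 in these comparisons. The cause was not tested in any of these.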

Other observations

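Among the neighbouring tissues, the genes that passed by limma in old against young control mice did not move one way. Of the ependymal and ciliated cell genes, Dynlrb2 fell by 0.84, Dnah5 by 0.94 and Rsph1 by 0.64, all parts of cilia or their motors, with adjusted p of 0.00656, 0.00652 and 0.0342, while Pltp, a phospholipid transfer protein gene, was higher by 0.43 (adjusted p = 0.014). Of the meningeal genes, Ptgds, which encodes prostaglandin D synthase, was higher by 0.31 (limma adjusted p = 0.0419). Ogn, which encodes a small matrix proteoglycan, had median signals of 507 in mixture, 561 in α-tocopherol, 354 in old control and 291 in young control mice, and differed over the 4 groups (limma F test, adjusted p = 0.00471).

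Old control mouse 5 had the highest Ttr signal of the 20 mice, 50082, with a Kl signal of 227, a Kcne2 signal of 157 and an Otx2 signal of 27.5. Old control mouse 2, with a Ttr signal of 44097, had 547 for Kl, 488 for Kcne2 and 96.4 for Otx2.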
